A study of Mus musculus with 13 samples.

Results

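The genes described here are 10 genes of IL-6, STAT3 and NF-κB signaling and of its feedback control in the murine liver: Il6ra, Il6st, Il1r1, Jak2, Stat3, Nfkb1, Socs3, Cish, Nfkbia and Tnfaip3. They were found by symbol in the deposited liver table, which lists 11779 genes, and all 10 are in it. Liver RNA came from Balb/c mice, 3 given a control GalNAc-conjugated ASO against Firefly Luciferase (Luc ASO) and 3 given a mix of 5 GalNAc-conjugated ASOs against the long non-coding RNA LL35 (LL35 ASO), collected 5 days after injection. GalNAc is a sugar that directs an oligonucleotide to hepatocytes, and an ASO is a short DNA-like strand that lowers the RNA it pairs with. The labels give 150 mg/kg for each ASO of the mix, whereas the methods of the study describe its doses as totals, and the ages of the mice were not given in the sources used here. The number of ASOs in the mix is also unsettled, since the text of the study gives 5 conjugates for mice and its supplementary list of them holds fewer. The AML12 hepatocyte libraries, 3 with Luc ASO and 4 with LL35 ASO on day 2, were not analysed here.

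For each gene the table holds a single level, the mean normalized count over the compared livers of both groups. It has no value for a single mouse. The columns that compare the groups hold the study's own results and were not used, so nothing is said here about a difference between LL35 ASO and Luc ASO livers. The values below describe the levels of these genes in the pooled livers. No spread between mice can be given for any of them, the depth of the libraries is unknown, and no test was made.

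IL-6 binds its receptor, the product of Il6ra, and the complex joins the shared signaling chain gp130, the product of Il6st. Kinases of the JAK family bound to gp130 then phosphorylate STAT3, which enters the nucleus and switches on acute phase genes in hepatocytes. IL-1, acting through the product of Il1r1, and other inflammatory signals free NF-κB from its inhibitor IκBα. Signaling of both kinds also induces brakes. Factors of the STAT family raise Socs3 and Cish, whose proteins dampen signaling by cytokine receptors. NF-κB raises Nfkbia, which encodes IκBα, and Tnfaip3, which encodes the ubiquitin-editing enzyme A20.

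Parts of the promoters of the 4 feedback inhibitors are shown first, because they hold letters that STAT factors and NF-κB are known to recognise. RefSeq promoters of build GRCm38.p6, each running from 250 bases before to 50 bases after an annotated start, were matched by symbol for 9 of the 10 genes, 11 promoters in all. Nfkb1 was not matched. They were searched on both strands for the STAT motif TTCNNNGAA, which reads the same on both strands, and for the NF-κB consensus motif of 10 letters. The windows below are given 5′ to 3′ on the strand of the gene, with motif matches on either strand in capitals. The NF-κB motif begins with GGG and ends with CC. A match on the opposite strand therefore begins with GG and ends with CCC in these windows.

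Socs3 (chr11:117969472-117969560, minus strand): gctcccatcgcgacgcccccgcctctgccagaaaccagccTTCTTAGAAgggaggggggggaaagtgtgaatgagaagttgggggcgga

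Cish (chr9:107296654-107296683, plus strand): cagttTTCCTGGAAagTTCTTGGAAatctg

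Nfkbia (chr12:55492648-55492716, minus strand): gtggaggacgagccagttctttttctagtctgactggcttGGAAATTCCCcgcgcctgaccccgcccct

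Tnfaip3 (chr10:19015411-19015575, minus strand): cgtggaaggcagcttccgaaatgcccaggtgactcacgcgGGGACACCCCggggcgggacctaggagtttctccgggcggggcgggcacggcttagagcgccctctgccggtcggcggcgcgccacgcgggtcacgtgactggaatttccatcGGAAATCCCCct

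In Socs3 the STAT motif lies at bases -154 to -146, counted from the annotated start. Cish holds 2 STAT motifs in tandem, at bases 1 to 9 and 12 to 20 of the annotated transcript. Nfkbia holds an NF-κB motif at bases -29 to -20, and Tnfaip3 holds 2, at bases -125 to -116 and -12 to -3, while its second annotated promoter has no match to either motif. No promoter of Socs3 or Cish held the NF-κB motif, and no promoter of Nfkbia or Tnfaip3 held the STAT motif.

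Among the 11 promoters, 2 (18.2%) held a STAT motif and 3 (27.3%) an NF-κB motif. Of all 32841 promoters searched, 8.30% held a STAT motif and 8.46% an NF-κB motif, and for promoters of genes in the liver table the shares were 6.94% and 10.3%. Promoters with 2 or more matches were rarer, at 0.457% of all promoters for the STAT motif and 1.22% for the NF-κB motif. Outside the feedback inhibitors, the only match was an NF-κB motif at bases -232 to -223 of the second annotated promoter of Il1r1, whose window follows.

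Il1r1 (chr1:40266336-40266403, plus strand): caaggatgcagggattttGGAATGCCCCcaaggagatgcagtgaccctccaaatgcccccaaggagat

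The promoters of Il6ra, Il6st, Jak2 and Stat3 held neither motif in the bases searched. A match is a run of letters and was not tested for binding, and the absence of one says only that the letters are not in this window.

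As counted, the receptors and Stat3 were the most abundant of the 10 genes. The mean normalized count was 4674 for Il6st, 3474 for Il6ra, 2166 for Il1r1 and 2012 for Stat3, and 93.1% to 97.6% of the listed genes were lower. Nfkbia followed with 592, Nfkb1 with 492 and Jak2 with 275. The remaining inhibitors were lowest, with 206 for Cish, 127 for Tnfaip3 and 113 for Socs3, below the median of 235 over all listed genes. The levels of the 10 genes spanned 41.3-fold, and their median was 542. Together they took 0.125% of all normalized counts in the table, and 73.0% of that share lay in the 3 receptors against 7.34% in the 4 feedback inhibitors.

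**Figure D1:**
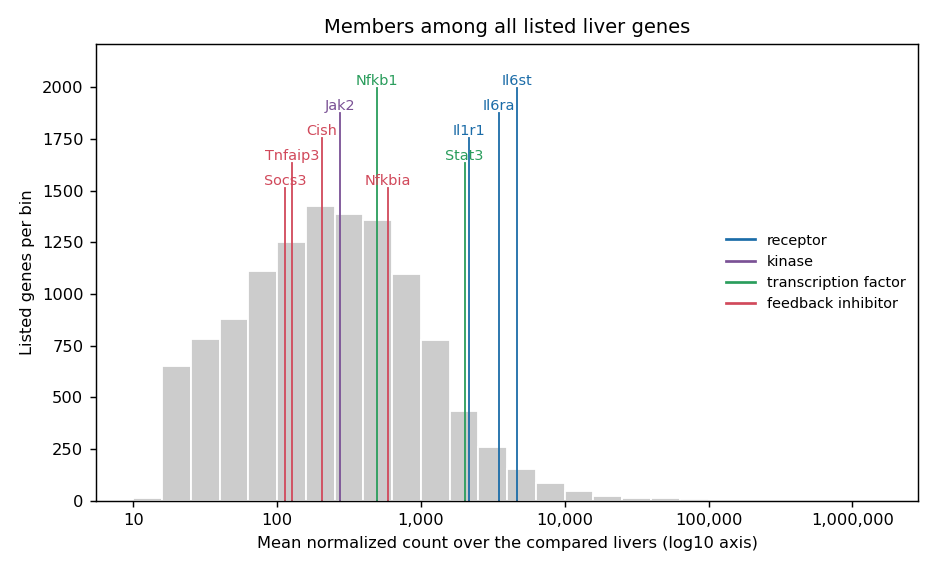
Distribution of the mean normalized count over the compared livers (log10 axis) for 11779 listed genes, as genes per bin, with a coloured line at each of the 10 genes. Stat3 and the 3 receptors lie between 2012 and 4674, and the inhibitors Socs3, Tnfaip3 and Cish lie between 113 and 206, left of the peak or at it; line heights carry no value.

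Long transcripts give more reads, so levels of different genes were compared as mean normalized count per kb of merged exon, with exon lengths from GENCODE release M21. On this scale Nfkbia, whose exons add up to only 1610 bases, moved up among the receptors. Its level was 368 per kb, beside 421 for Il6st, 402 for Il6ra and 340 for Il1r1. Stat3 had 211 per kb and Jak2 54.7, close to the median of 51.5 over the 11754 genes with an exon length. Nfkb1 had 40.8 per kb, Socs3 39.1, Cish 32.0 and Tnfaip3 17.6. The 3 receptors thus lay close together, above 89.95% to 91.9% of listed genes, whereas the 4 inhibitors were spread from 21.5% for Tnfaip3 to 90.7% for Nfkbia. Summed by role, the levels per kb were 1163 for the 3 receptors and 456 for the 4 inhibitors, a smaller gap than in undivided counts. Of the 10 genes, 6 were above the median listed gene, and their own median was 2.58 times that of all listed genes.

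The choice of length moves some of these positions. With the longest transcript as length, Nfkb1 rose from above 42.8% to above 65.1% of listed genes, since its merged exons sum to 12061 bases and its longest transcript to 4149. With the coding length, Cish rose from above 36.1% to above 63.1%, and Jak2 fell from above 51.7% to above 30.3%. Il6st, Il6ra, Il1r1, Stat3 and Nfkbia stayed above at least 81.5% of genes under all 3 lengths, and Tnfaip3 was the lowest of the 10 genes under each of them. Among neighbours in the order, Il6st and Il6ra, Nfkbia and Il1r1, Jak2 and Nfkb1, and Socs3 and Cish exchanged places under at least 1 of the 3 lengths, so their order is undecided. The steps from Il1r1 to Stat3, from Stat3 to Jak2 and from Cish to Tnfaip3 kept their direction, at 1.12 to 1.61, 3.86 to 10.7 and 1.82 to 4.88 times. Those from Il6ra to Nfkbia and from Nfkb1 to Socs3 did too, at 1.07 to 4.01 and 1.01 to 2.67 times. A range over lengths is not a spread between mice, so a kept direction does not settle the order either. Genes further apart in the order also changed places. Per kb of coding length Nfkbia, with 628, lay below Stat3, with 871. On the same scale Jak2, with 81.0, lay below Socs3, with 168, and Cish, with 267.

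**Figure D2:**
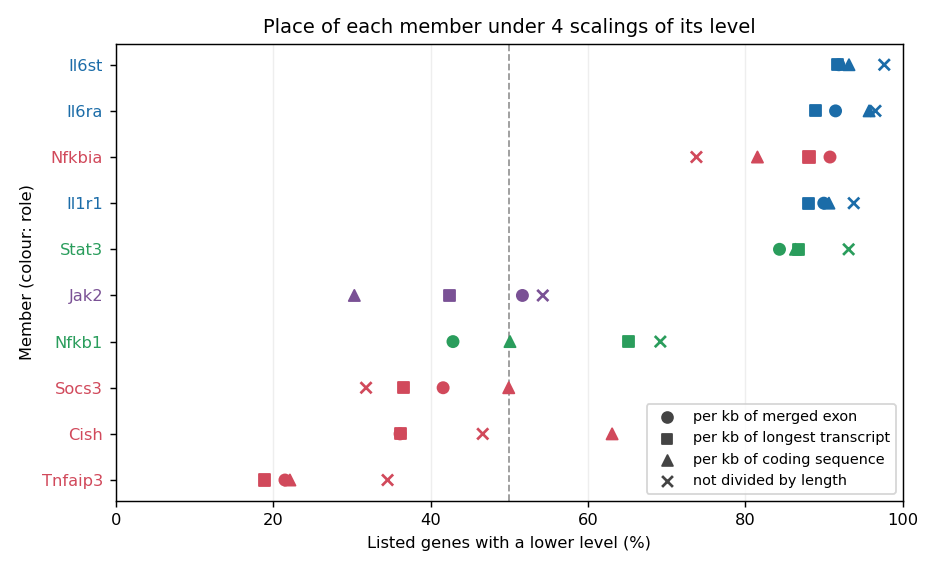
Share of listed genes with a lower level (%), for each of the 10 genes, with circles for the level per kb of merged exon, squares per kb of longest transcript, triangles per kb of coding sequence and crosses for the undivided mean normalized count. The receptors, Stat3 and Nfkbia stay right of the dashed line at 50% under all 4 scalings. Tnfaip3 and Socs3 stay left of it, Socs3 narrowly per kb of coding sequence (49.9%), and Jak2, Nfkb1 and Cish change sides.

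The receptors were set beside the other receptor chains of a pathway list of 63 further genes. Il6st and Il6ra had nearly the same level, with a ratio of 1.05 per kb of merged exon that ran from 0.675 to 1.34 over the 3 lengths. The gp130 chain also serves other cytokines of the IL-6 family. Lifr, the receptor chain for LIF, had 481 per kb, a level near that of Il6st. Il11ra1, the IL-11 receptor, had 40.1 per kb, and Osmr, the oncostatin M receptor chain, had 12.0. Il6st was thus 7.83 to 12.3 times as high as Il11ra1 and 20.3 to 35.0 times as high as Osmr over the 3 lengths.

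Il1r1 was 2.66 times as high per kb as Il1rap, the accessory chain that IL-1 signaling requires, and 1.16 to 2.66 times over the 3 lengths. Of the ligands, Il1b had 15.3 per kb, Il1a 25.01 and Il1rn, the natural antagonist of the IL-1 receptor, 29.6. The genes of IL-6, IL-11, LIF, oncostatin M and TNF are not among the listed genes, whose lowest mean normalized count was 15.6, and were not analysed here. Per kb of merged exon, every listed ligand, 4 of the 9 on the list, lay below the median gene, whereas per kb of coding length Il1rn, with 307, lay above the median of 168.

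Of the JAK kinases that act with gp130, Jak1 had 304 per kb and was 5.55 to 8.18 times as high as Jak2 over the 3 lengths. Tyk2, with 47.4 per kb, and Jak2 could not be ordered, since their ratio ran from 0.812 to 1.15. Jak3, a kinase known mainly from lymphocytes, had 31.6 per kb. Of the 15 kinases and adaptors on the list, all were listed and 8 were above the median gene per kb of merged exon. On that scale the highest was Chuk, the gene of IκB kinase α, with 372 per kb, and the lowest was Tab1 with 15.2. Per kb of coding length Ikbkg, the gene of the regulatory subunit of the same kinase, was higher than Chuk, with 1222 against 847.

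Stat3 was higher than each of the other STAT genes named here under all 3 lengths. Stat6 had 166 per kb, Stat2 156, Stat5b 108 and Stat5a 23.4, and Stat4 is not among the listed genes. The smallest step was to Stat6 and Stat2, at 1.27 to 2.99 and 1.35 to 2.61 times. Stat3 was 7.90 to 12.5 times as high as Stat5a.

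Nfkb1 encodes the p105 precursor of the NF-κB subunit p50. It was lower per kb than Rela, the gene of its usual partner p65, which had 183 per kb and was 1.74 to 4.48 times as high. Nfkb1 in turn exceeded Nfkb2 by 1.64 to 3.99 times and Relb by 6.09 to 14.9 times over the 3 lengths. Relb, a subunit of the alternative NF-κB pathway, was the lowest transcription factor on the list, with 6.69 per kb.

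Nfkbia was the highest of all feedback inhibitors measured, the 4 members and 18 listed genes of the pathway list alike, per kb of merged exon. Per kb of coding length Ptpn11, also on the list of inhibitors, was higher, with 729 against 628. Without division by length Ptpn11, with 1305, and Socs4, with 623, exceeded the 592 of Nfkbia. Nfkbia was 5.46 to 6.44 times as high as Nfkbib and 24.4 to 39.3 times as high as Nfkbie, the genes of the related inhibitors IκBβ and IκBε, over the 3 lengths. Set against the factors that IκBα holds in the cytoplasm, Nfkbia was 1.82 to 2.01 times as high as Rela and 3.16 to 9.01 times as high as Nfkb1. Tnfaip3 was 11.5 to 20.9 times lower than Nfkbia. It was also lower than the deubiquitinase genes Cyld and Otulin, which act on the same signaling complexes and had 34.9 and 195 per kb.

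Socs3 and Cish belong to the SOCS family, named for the suppression of cytokine signaling. Socs2, a target of growth hormone signaling in the liver, had 29.0 per kb, and its ratio to Cish ran from 0.905 to 1.72, so the order is undecided. Socs4 was the highest of the family per kb of merged exon, with 90.6, and 2.04 to 2.84 times as high as Socs3. Socs7, Socs5 and Socs6 had 34.5, 25.2 and 15.1 per kb, and Socs1 is not among the listed genes. Stat3 was 5.19 to 7.51 times as high as Socs3, its feedback inhibitor.

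**Figure D3:**
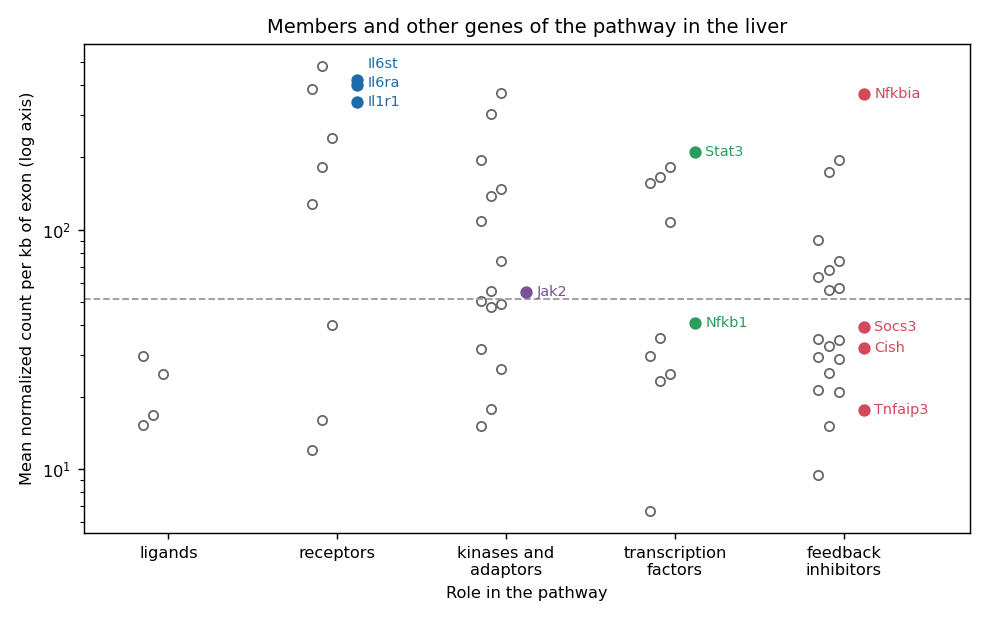
Mean normalized count per kb of merged exon (log axis) by role, with filled points for the 10 genes, open points for the 54 listed genes of the pathway list, and a dashed line at the median listed gene (51.5). The receptors Il6st, Il6ra and Il1r1 sit near the top of their column, Nfkbia tops the feedback inhibitors, and all listed ligands lie under the line.

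Of the 63 other genes of the pathway, 54 are listed and 25 were above the median gene, with a median of 48.2 per kb. By role, 5 of 8 listed receptors, 4 of 9 transcription factors and 8 of 18 feedback inhibitors were above it. The members' counts in the same roles were 3 of 3 receptors, 1 of 2 transcription factors and 1 of 4 inhibitors. All these counts are per kb of merged exon. Per kb of coding length Cish and Nfkb1 also lay above the median gene, with 267 and 169 against 168. The kinase Jak2, above the median per kb of merged exon, lay below it per kb of coding length, with 81.0.

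The tissue label was checked with marker genes. The 6 hepatocyte markers, such as Alb, had 2550 to 519843 per kb, and Alb alone took 10.8% of all normalized counts. Kupffer cell and macrophage markers (8 of 8 listed, 55.4 to 791 per kb), sinusoidal endothelial markers (6 of 6, 41.4 to 289) and stellate cell markers (6 of 6, 13.8 to 265) were present at levels like those of the 10 genes. Listed were 1 of 4 cholangiocyte markers, 2 of 5 neutrophil markers, 1 of 5 markers of T and NK cells and 0 of 4 B cell markers. In these bulk livers, the cell type behind the level of a given gene was not tested, and few cells with much RNA cannot be told apart from many cells with little. LL35 itself (9030622O22Rik) has no row among the genes analysed, and its knockdown was not checked here.

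Transcripts of cytokine and feedback genes often carry AU-rich elements, stretches with the pentamer ATTTA that mark an mRNA for fast decay. They were counted in the 3′ UTR of the GENCODE transcript with the longest coding sequence, on the transcript strand only. Socs3 held 4 pentamers, Cish 3, Nfkbia 2 and Tnfaip3 5. Per kb of 3′ UTR these are 2.71, 2.76, 3.91 and 2.75, and 75.8% to 88.1% of the 10699 listed genes with a 3′ UTR of at least 100 bases had fewer. The median over those genes was 1.35 per kb. Il6st and Il1r1 held the largest counts, 9 and 8, in 3′ UTRs of 5641 and 3864 bases. Per kb, Nfkb1 had the most of the 10 genes, at 5.71 with 4 pentamers in 700 bases, and Il6ra the fewest, at 0.544.

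**Figure D4:**
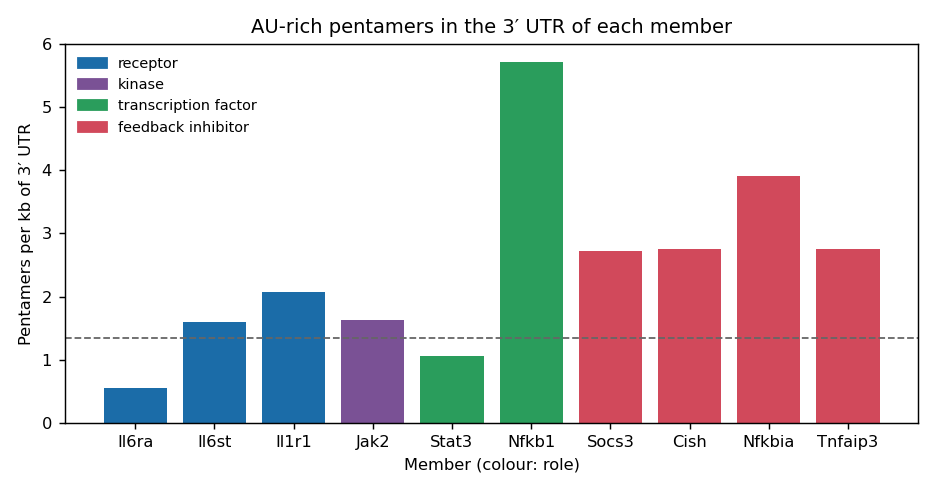
AU-rich pentamers per kb of 3′ UTR for each of the 10 genes, coloured by role, with a dashed line at the median of 10699 listed genes (1.35). The 4 feedback inhibitors lie between 2.71 and 3.91 and Nfkb1 reaches 5.71, while Il6ra and Stat3 lie under the line.

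The stricter nonamer TTATTTATT, which contains the pentamer, occurred in 3 of the 10 genes, all of them feedback inhibitors, against 7.39% of the listed genes. These shares were not adjusted for length. The median 3′ UTR had 1647.5 bases in the 10 genes, 1280.5 in the 4 feedback inhibitors and 1066 in the listed genes. Cish held 2 overlapping copies, and Nfkbia and Tnfaip3 1 each. The sites of Cish and Nfkbia are shown with 10 bases on either side and the nonamer in capitals, and for Cish the first copy is shown.

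Cish 3′ UTR, from base 487 of 1087: tatacagtatTTATTTATTtattctcctt

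Nfkbia 3′ UTR, from base 296 of 512: ggaccacgttTTATTTATTgtgcttttga

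Base numbers give the first letter of the nonamer, counted from the base after the stop codon. Socs3 held no nonamer in its 1474 bases, although it held 4 pentamers. The genes with a nonamer, Nfkbia, Cish and Tnfaip3, had levels above 90.7%, 36.1% and 21.5% of listed genes per kb of merged exon. Neither the promoter motifs nor the 3′ UTR elements were tested against the levels, since 10 genes chosen together are not a sample for such a test.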

How the data were processed

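Liver RNA of 3 Luc ASO and 3 LL35 ASO mice was sequenced from rRNA-depleted, directional libraries. According to the methods, the authors aligned reads with STAR 2.5.3a, counted them on Ensembl genes and normalized the counts with DESeq2 by the RLE method; the genome build and the counted strand were not given in the sources used here. The deposited signal is each gene's mean normalized count, pooled over the libraries of both groups. The table also holds 5 columns of the authors' group comparison (log2 fold change, its error, a test statistic and p-values), which were not used, so the planned test between groups, its replicate checks and all other fits were not made. Depth per library, and hence precision, is unknown.

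The genes and lists were chosen with earlier results of these data known. Named genes were the 10 members and any listed gene of the pathway list. Ensembl identifiers were matched to GENCODE M21 (GRCm38) for exon length in 11754 genes and for coding length in 11384. Length was the merged exons of all transcripts, with the longest transcript or the longest coding sequence as alternatives. Motifs were chosen for what is known of these genes, and the searches were tested on simulated data. Python 3.11.15, numpy 2.4.6, pandas 2.3.3, scipy 1.17.1 and matplotlib 3.10.9 were used.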

Additional observations from a re-analysis of the deposited data

How the results depend on the processing

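The median place of the 10 genes, above 68.0% of listed genes per kb of merged exon, moved to 75.9% with the longest transcript as length, 72.3% with the coding length, 71.5% without division by length and 62.3% among genes whose normalized counts averaged 50 or more. The number of these genes above the median listed gene was 6, and 5 to 7 under these 4 alternatives. For the other genes of the pathway the number was 25, and 21 to 28. Single genes shifted by up to 22.3 points of place with the longest transcript (Nfkb1), 26.9 with the coding length (Cish), 26.3 without division by length (Nfkb1) and 11.3 among genes averaging 50 or more (Tnfaip3). No paired analysis was possible because the table holds no values of single mice. For the same reason leaving out a mouse and the other fits planned for the group comparison were not run.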
